A study of Mus musculus with 6 samples.

Results

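Sox10, Sox8, Sox9, Olig1, Olig2 and Nkx2-2 are transcription factors of the glial lineages, and all 6 were found by symbol among the 18560 genes of the count table. They were read over the 38 whole-bulb clusters the authors named, in 51426 annotated cells of the adult mouse olfactory bulb from 6 libraries. The 10 glial clusters were OPC (oligodendrocyte precursor cells), MyOligo (myelinating oligodendrocytes), OEC1 to OEC5 (olfactory ensheathing cells, the glia that wrap olfactory axons) and Astro1 to Astro3 (astrocytes), and the other 28 clusters held neuronal, vascular, mesenchymal, immune and blood cells.

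The libraries were single-cell RNA-seq of olfactory bulbs from C57BL/6NJ mice 14 weeks old, with no transgene or engineered allele in any group, in 3 groups of 2 libraries. The labels name no manipulation for the control mice, and the paper describes its controls as naive. The naris occlusion group had smell blocked through a single nostril for 6 weeks, and the trained group learned odour discrimination for 6 weeks. The study's methods describe water deprivation for the trained mice only, so water deprivation and odour training cannot be told apart. The study's text also calls the bulb on the unblocked side its control, and which tissue the control libraries hold was taken here from the labels. Each library pooled 3 mice, and the p-values below measure the spread between pools. By the study's own description replicate 1 came from males and replicate 2 from females, so sex and replicate number cannot be told apart. The main fit had no term for replicate, so any difference between the sexes is part of the spread between pools.

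SOX proteins of the E group (Sox8, Sox9 and Sox10) bind DNA through a high-mobility-group domain. In the nervous system Sox9 is known as a factor of neural stem cells and astrocytes, and Sox10 as a factor of neural crest derivatives and of the oligodendrocyte lineage, where it drives myelin genes. Olig1 and Olig2 are basic helix-loop-helix proteins; Olig2 specifies oligodendrocyte precursors, and Olig1 acts in their maturation. Nkx2-2 is a homeodomain protein that is switched on in the same precursors. Olfactory ensheathing cells derive from neural crest.

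By the RefSeq annotation of the GRCm38.p6 build, Sox10 lies on chromosome 15 at 79154913 to 79164490 and Sox9 on chromosome 11 at 112782210 to 112787757. Nkx2-2 lies on chromosome 2 at 147176485 to 147195434. Olig2 and Olig1 are neighbours on chromosome 16, Olig2 at 91225550 to 91228677 and Olig1 at 91269769 to 91271939, with 41091 bases between them. Sox8 lies on chromosome 17 at 25565893 to 25570686. The RefSeq window before the transcription start is shown for Sox8 and Olig2, the pair of members with a window that lies wholly outside the gene. They are shown so that the start regions of a factor shared by precursors, ensheathing cells and astrocytes and of a factor nearly absent from ensheathing cells can be read side by side. Each is 250 bases, 5′ to 3′ on the gene's strand, with matches to the SOX core (ACAAAG or ACAATG, either strand) or to the E-box (CANNTG, the site type of helix-loop-helix proteins) in capitals.
Sox8 (GRCm38.p6, chr17:25570687-25570936, minus strand): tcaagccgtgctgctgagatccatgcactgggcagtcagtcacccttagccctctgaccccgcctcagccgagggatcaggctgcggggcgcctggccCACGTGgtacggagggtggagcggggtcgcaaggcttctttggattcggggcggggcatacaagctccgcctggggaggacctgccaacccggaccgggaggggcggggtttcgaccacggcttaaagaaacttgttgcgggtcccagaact
Olig2 (GRCm38.p6, chr16:91225300-91225549, plus strand): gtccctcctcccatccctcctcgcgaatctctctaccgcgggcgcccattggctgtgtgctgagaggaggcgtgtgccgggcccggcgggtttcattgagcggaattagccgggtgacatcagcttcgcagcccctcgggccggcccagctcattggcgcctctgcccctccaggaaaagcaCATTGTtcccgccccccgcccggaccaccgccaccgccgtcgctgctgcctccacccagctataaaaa

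The Sox8 window held 1 E-box and no SOX core, and the Olig2 window held 1 SOX core and no E-box. The Sox8 E-box read CACGTG, and neither window held the E-box forms CATATG or CAGCTG, which were searched for separately. The motifs do not overlap each other in either window. The SOX core occurred in 25.2% and the E-box in 66.2% of the 32851 windows of the same length in the RefSeq table, so neither match sets these windows apart. The GC content was 65.6% for Sox8 and 66.8% for Olig2, against a median of 52.4% over all windows.

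A level is given here as CPM, the gene's unique molecular identifiers (UMIs, 1 per captured molecule) per 1000000 UMIs of the cluster, with the mean and SD over the 6 libraries. The reads mark 3′ ends and are not scaled for length, so levels are compared between clusters for each gene and not between genes. The clusters were built from the expression of these same cells, so the differences between clusters are described without a test. The paper gives Sox10 as the marker of its ensheathing clusters and Olig2 as the marker of its precursor cluster. Sox10 in OEC and Olig2 in OPC are therefore not independent of the cluster names. The labels held for most marker genes: 6 of 7 precursor markers were highest in OPC (Cspg4 was highest in Mural2), 7 of 7 myelin markers in MyOligo, 5 of 5 ensheathing markers in an OEC cluster and 6 of 7 astrocyte markers in an Astro cluster (Agt was highest in OEC2). Sostdc1, listed for ensheathing cells, reached 22.6 CPM at most. The libraries held 11841160 to 17065083 UMIs and a median of 1028 to 1723.5 UMIs per cell, with the lowest median in trained replicate 1. Of 49931 barcode sequences, 1461 occurred in more than 1 library.

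Sox10 was found in the oligodendrocyte lineage and in all OEC clusters, and was at background in astrocytes. In OPC it reached 387 and 431 CPM in the control libraries, 370.1 and 413 in the occluded and 458 and 413 in the trained libraries, a mean of 412 ± 31.2 CPM (SD, n = 6). Each of these values was above every MyOligo value, where the mean was 270.4 ± 30.3 CPM. Of the OEC clusters 4 had means near that of MyOligo, at 298 ± 15.7 CPM in OEC1, 280.4 ± 44.1 in OEC5, 279 ± 13.5 in OEC2 and 253 ± 21.4 in OEC4, while OEC3 was lower at 174 ± 20.2 CPM. In the order OEC1, OEC5, OEC2, MyOligo, OEC4 each cluster's mean differed from the next by less than the larger SD of the pair. Within libraries OPC stood above OEC1 in 6 of 6, and OEC1 stood above MyOligo in 6 of 6, by 0.15 ± 0.14 on the log2(CPM + 1) scale. OEC3 is a cluster of shallow cells, with a median of 817 UMIs per cell and 18.6% mitochondrial UMIs, against 2116.5 UMIs and 9.58% in OEC4, and the part of this in its lower Sox10 level was not tested. Astro1, Astro2 and Astro3 held 11.5 ± 3.47, 12.4 ± 10.7 and 11.9 ± 10.3 CPM, next to a median of 11.7 CPM over the 28 non-glial clusters. The OEC clusters held 22.5% of the cells, and 73.4% of all Sox10 UMIs came from them, against 10.1% from MyOligo and 6.30% from OPC.

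**Figure D1:**
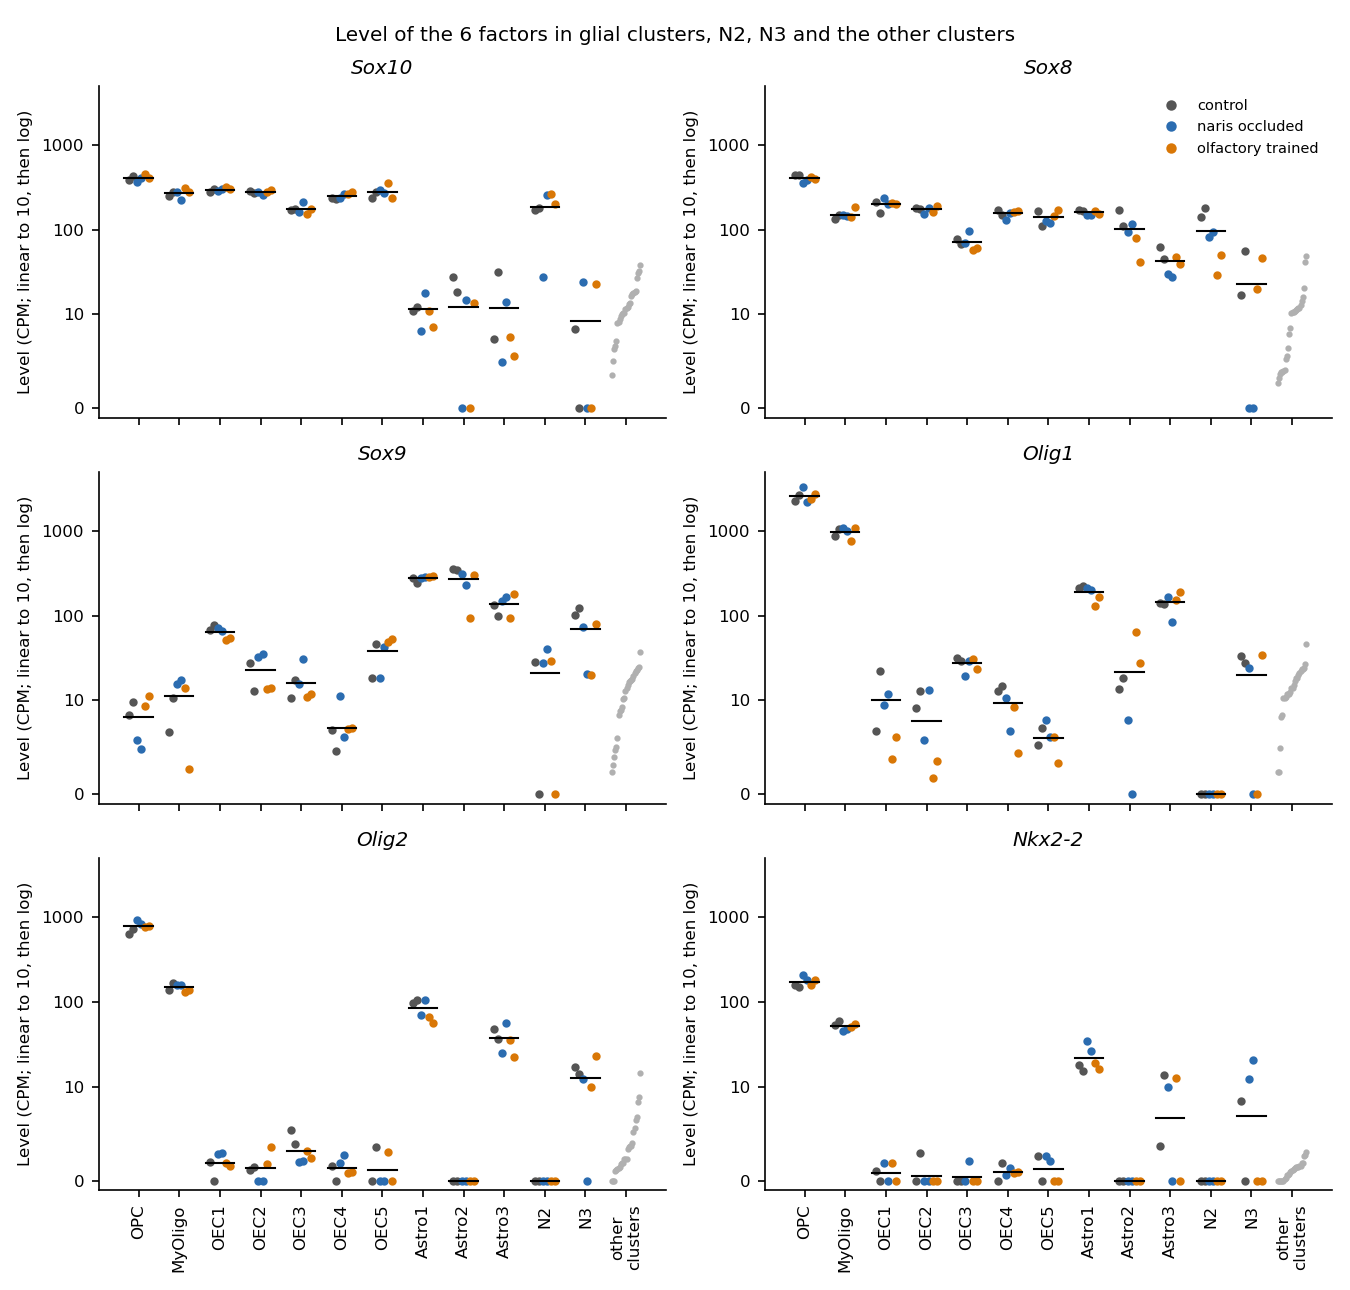
Level of each factor (CPM, vertical axis, linear up to 10 and logarithmic above) in the 10 glial clusters, in N2 and N3, and in the other clusters. Each coloured point is 1 library, each bar the mean over 6 libraries, and each small grey point the mean of 1 other cluster. Sox10 is high from OPC to OEC5 and low in Astro1, Sox9 is highest in the Astro clusters, and Olig1, Olig2 and Nkx2-2 are lower in MyOligo than in OPC and lower again in Astro1, with Olig2 and Nkx2-2 at 0 UMIs in Astro2.

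Sox8, the close relative of Sox10, was highest in OPC and was also found in MyOligo, OEC and Astro1. It reached 446 and 441 CPM in the control OPC, 359 and 389 in the occluded and 420.2 and 402 in the trained OPC, with a mean of 409 ± 33.1 CPM. OEC1 followed at 204 ± 26.1 CPM, OEC2 at 174 ± 14.3, Astro1 at 160.0 ± 8.64, OEC4 at 156 ± 14.5, MyOligo at 150.4 ± 17.5 and OEC5 at 140.2 ± 25.0 CPM. OPC stood above all of these in 6 of 6 libraries, while Astro1, OEC4, MyOligo and OEC5 followed each other by less than 1 SD. Astro2 held 102 ± 43.1 CPM and the shallow clusters OEC3 and Astro3 held 72.2 ± 14.3 and 42.2 ± 12.8 CPM, the latter below N11, the next non-glial cluster after N2, at 48.6 CPM. As a share of the UMIs of both genes, which is compared only between clusters, Sox8 made up 49.8% ± 2.0 in OPC and 35.8% ± 3.3 in MyOligo, without overlap between the clusters over the 6 libraries. It made up 40.5% ± 3.8 in OEC1, 38.4% ± 2.1 in OEC2, 38.2% ± 2.4 in OEC4, 33.5% ± 6.3 in OEC5 and 29.2% ± 2.4 in OEC3.

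Sox9 was highest in the astrocytes, with a lower level in some ensheathing cells. In Astro1 the control libraries gave 281 and 244 CPM, the occluded 277 and 289 and the trained 284 and 299, a mean of 279 ± 18.7 CPM. Astro2 had a mean of 274 ± 97.8 CPM, and its libraries ran from 95.5 CPM in trained replicate 1 to 355 CPM in control replicate 1, and it was below Astro1 in occluded replicate 2 and trained replicate 1 and above it in the other 4. Astro2 had 336 cells and Astro1 had 3130, and Astro2 was the cluster with the highest Gfap, the intermediate filament of fibrous astrocytes, at 908 CPM. Astro3 reached 138 ± 36.0 CPM at a median of 708.5 UMIs per cell. The 3 Astro clusters gave 59.4% of all Sox9 UMIs from 10.2% of the cells.

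Within the ensheathing cells Sox9 was the member that differed most between clusters. OEC1 held 65.0 ± 9.74 CPM, with 68.4 and 77.0 in the control, 71.0 and 67.0 in the occluded and 51.5 and 55.2 in the trained libraries. OEC4 held 7.12 ± 2.19 CPM and its highest library, at 11.2 CPM, was below the lowest of OEC1. The mean log2 difference of OEC1 over OEC4, on the log2(CPM + 1) scale, was 3.05 ± 0.45, against 0.24 ± 0.11 for Sox10 and 0.38 ± 0.26 for Sox8 in the same cells. OEC5 and OEC2 lay between them, at 38 ± 15.5 and 22.6 ± 10.2 CPM. These 4 clusters had similar depth, with medians of 2108 to 2352 UMIs per cell. Their summed endothelial markers differed as well, at 3643 CPM in OEC1, 1080 in OEC5, 1225 in OEC2 and 152 in OEC4. The endothelial cluster EC2 held 4805 CPM of these markers and Sox9 at 37.0 CPM. The part of this in the Sox9 levels was not tested. In the oligodendrocyte lineage Sox9 was low, at 8.27 ± 2.50 CPM in OPC and 11.2 ± 5.65 in MyOligo, below the median of 14.6 CPM over the non-glial clusters.

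**Figure D2:**
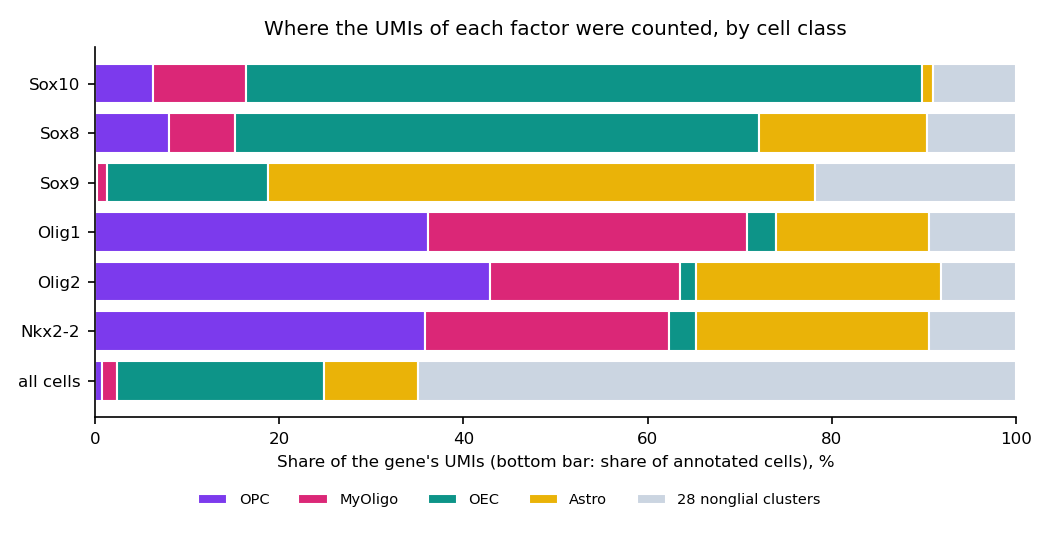
Share of all UMIs of each factor (horizontal axis, percent) that came from OPC, MyOligo, OEC, Astro or the 28 non-glial clusters, pooled over 6 libraries, with the share of annotated cells in the bottom bar. Ensheathing cells gave 73.4% of the Sox10 UMIs and astrocytes 59.4% of the Sox9 UMIs, while OPC gave 42.9% of the Olig2 UMIs from 0.772% of the cells.

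Outside the named glia, 2 clusters labelled neuronal held a SOX factor above the rest. N2 had 68 cells, 5 to 22 per library, and Sox10 there was 183 ± 85.6 CPM, with 169 and 179.7 in the control, 27.7 and 258 in the occluded and 262 and 203 in the trained libraries. Sox8 was 96.4 ± 56.0 CPM in N2, and Olig1, Olig2 and Nkx2-2 had a UMI in 0 of 68 cells, which allows a share of up to 4.41% of cells with a UMI for each and does not limit how many cells express them. N2 also held the ensheathing markers at a summed 15557 CPM, below each OEC cluster (20290 CPM in OEC1 to 36634 CPM in OEC4), beside 549 ± 137 CPM of Dcx, a microtubule protein of young neurons, and only 7 of its cells carried a name in the authors' separate annotation of neurons. Its median of 3568.5 UMIs per cell was above the 1354 of all annotated cells, and whether these barcodes held more than 1 cell was not tested. N3, where the dividing-cell genes Mki67 and Top2a reached 102 ± 67.9 and 174 ± 141 CPM, held Sox9 at 70.0 ± 42.6 CPM, between 19.9 and 125 CPM by library. Without N2 the non-glial clusters held Sox10 between 3.56 and 38.7 CPM and Sox8 between 2.74 and 48.6 CPM, with the highest of both in N11. The cluster n13-AstrocyteLike of the neuron annotation held Olig1 at 47.2 ± 21.5 CPM and had a Sox9 UMI in 1.49% of its 2950 cells, against 36.3% in Astro1; its median depth was 656 UMIs per cell.

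Olig1 and Olig2 were highest in OPC, then MyOligo, then the astrocytes Astro1 and Astro3. Olig1 in OPC was 2247 and 2668 CPM in the control, 3325 and 2210.1 in the occluded and 2375 and 2723 in the trained libraries, a mean of 2591 ± 418 CPM. MyOligo held 979 ± 134 CPM, Astro1 held 193 ± 35.8 and Astro3 held 146 ± 35.6 CPM. Olig2 in OPC was 637 and 734 CPM in the control, 925 and 841 in the occluded and 765 and 798 in the trained libraries, a mean of 783 ± 97.8 CPM. It was 148 ± 14.3 CPM in MyOligo, 84.0 ± 22.4 in Astro1 and 37.1 ± 13.0 in Astro3, and each of these clusters was above the next in 6 of 6 libraries. Nkx2-2 followed the same order in OPC, MyOligo and Astro1. In Astro3, at 6.66 CPM, it was below the 6.89 CPM of the non-glial cluster N3. It held 157 and 152 CPM in the control OPC, 208 and 183 in the occluded and 161 and 181 in the trained OPC, and its means were 174 ± 21.2 CPM in OPC, 51.8 ± 5.16 in MyOligo and 21.6 ± 7.48 in Astro1.

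The precursors exceeded the myelinating cells by different amounts for the different factors. On the log2(CPM + 1) scale the mean difference was 0.61 ± 0.16 for Sox10, 1.40 ± 0.18 for Olig1, 1.44 ± 0.23 for Sox8, 1.72 ± 0.30 for Nkx2-2 and 2.39 ± 0.18 for Olig2, each above 0 in 6 of 6 libraries. The lowest Olig2 difference, 2.14, was above the highest Olig1 difference, 1.65, and the highest Sox10 difference, 0.88, was below the lowest difference of every other factor in this group. In the same terms Olig2 made up 23.3% ± 2.3 of the summed Olig1 and Olig2 UMIs in OPC, 13.3% ± 1.2 in MyOligo and 30.2% ± 4.3 in Astro1. OPC was sampled with 397 cells and a median of 2901 UMIs per cell, and MyOligo with 858 cells and 3322 UMIs.

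**Figure D3:**
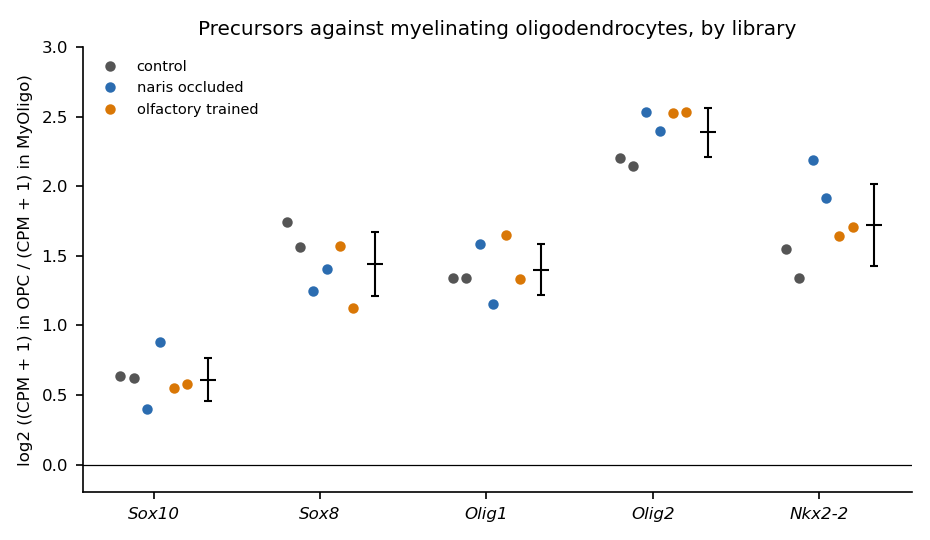
Difference between OPC and MyOligo for 5 factors, as log2 of the ratio of CPM + 1 (vertical axis) in each library (coloured points), with the mean and SD over 6 libraries at the right of each group (black). The points of Sox10 lie between 0.40 and 0.88 and those of Olig2 between 2.14 and 2.53, with no overlap.

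Astro1 held Olig2, and Astro2 had no Olig2 UMI. In Astro1 its libraries held 98.3 and 107 CPM in the control, 70.5 and 106 in the occluded and 66.0 and 55.9 CPM in the trained mice, and 13.9% of the 3130 cells had at least 1 Olig2 UMI. In microglia of MicroG2, of nearly the same depth (median 1847 against 1851.5 UMIs), the share was 0.398%. In Astro2 no Olig2 UMI was found in 653622 UMIs over all libraries, nor any of Nkx2-2, and 0 of 336 cells allow a share of up to 0.893% of cells with a UMI, which does not limit how many cells express them. Against 3 counts over the whole cluster, Olig2 was at least 18.6-fold higher in Astro1 than in Astro2 and Nkx2-2 at least 4.78-fold higher. Astro1 and Astro2 had medians of 1851.5 and 1859.5 UMIs per cell, so they had similar depth per cell. Olig1 differed in the same direction, with 193 ± 35.8 CPM in Astro1 and 21.9 ± 22.5 in Astro2, a share of cells of 2.38% in Astro2 that is close to the 2.04% of MicroG2. In Astro3 Olig2 was at least 8.03-fold higher than in Astro2. Astro3 was shallower, with a median of 708.5 UMIs per cell and 23.6% mitochondrial UMIs, against 1859.5 and 8.44% in Astro2. Summed myelin markers were 505 CPM in Astro3 and 136 CPM in Astro2, and precursor markers 57 and 71 CPM. The part of these in the Olig2 difference was not tested.

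In the Astro1 cells with an Olig2 UMI, Pdgfra and Cspg4, the precursor markers read there, were at or near 0. In those 436 cells Pdgfra, the growth factor receptor that defines precursors, had 0 UMIs, where 3 counts would be 2.74 CPM, against 772 CPM in the OPC cells with an Olig2 UMI, and Cspg4, the NG2 proteoglycan, had 4 UMIs. Sox10 was at 10.0 CPM in them and 12 CPM in the other Astro1 cells, both near the non-glial median. Sox9 was at 270.4 CPM with and 281 CPM without an Olig2 UMI, and the water channel gene Aqp4 at 1157 and 969 CPM. The cells with an Olig2 UMI were deeper, with a median of 2342 against 1770 UMIs. All Astro1 cells together gave 24.2% of all Olig2 UMIs, more than the 20.6% of MyOligo, from 6.09% and 1.67% of the cells.

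**Figure D4:**
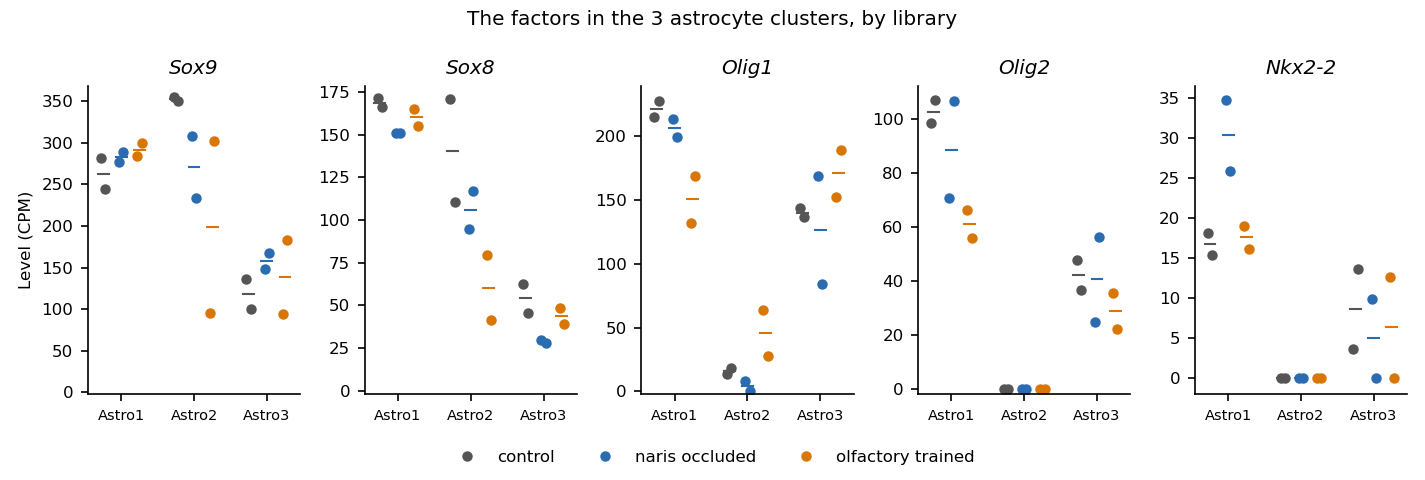
Level (CPM, vertical axes, each from about 0) of 5 factors in Astro1, Astro2 and Astro3, with 1 point per library coloured by group and a short bar at the mean of the 2 libraries. Sox9 is at 279 CPM in Astro1 and 274 CPM in Astro2, whereas Olig2 and Nkx2-2 are at 0 in every library of Astro2, and the 2 trained libraries are the lowest of the 6 for Olig1 and Olig2 in Astro1.

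Ensheathing cells held Sox10 and Sox8, with Olig2 and Nkx2-2 near the level of the non-glial clusters. Olig2 ran from 1.10 to 3.12 CPM over the OEC clusters, beside a median of 2.29 CPM over the non-glial clusters, and Nkx2-2 from 0.346 to 1.22 CPM beside 1.10 CPM. An Olig1 UMI was found in 2.22% of OEC1 cells and 2.18% of OEC4 cells, next to 2.04% in MicroG2, and these shares are read as background. OEC3 held more Olig1 than OEC4 in 6 of 6 libraries, at 27.4 ± 4.85 CPM. Of the non-glial clusters only N6 was higher, at 46.3 ± 15.7 CPM, and EC2 followed at 26.8 ± 10.0 CPM. N6 also had the highest level of the myelin marker Mobp after MyOligo, at 785 CPM. With cells thinned to 500 UMIs an Olig1 UMI was found in 1.45% of OEC3 cells, against 2.29% in N6, 1.52% in Mural2, 1.12% in EC2 and 0.557% in MicroG2. N6, OEC3 and EC2 were shallow, with medians of 655, 817 and 750.5 UMIs per cell. A Sox10 UMI was found in 46.7% of OEC1 cells and 41.4% of OEC4 cells, next to 1.33% in MicroG2. Free RNA in droplets can give low shares in cells that do not express a gene, and its part in these shares was not tested.

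Single precursors held several of the factors at once. At least 1 UMI was found in 90.4% of OPC cells for Olig1, 74.6% for Olig2, 58.9% for Sox10, 55.4% for Sox8, 32.2% for Nkx2-2 and 2.27% for Sox9. In MyOligo the shares were 89.4% for Olig1, 56.2% for Sox10, 37.1% for Olig2, 36.4% for Sox8, 15.3% for Nkx2-2 and 3.15% for Sox9. Olig1 and Olig2 were found together in 72.0% of OPC cells and 34.8% of MyOligo cells, Sox10 and Sox8 together in 37.8% and 21.3%. Of the 5 factors without Sox9, 15.4% of OPC cells had all 5 and 5.29% had none, against 2.33% and 4.66% of MyOligo cells. A cell with more UMIs shows more of every gene, so these shares describe detection. Expected shares were also computed for each cell thinned to 500 UMIs drawn without replacement. The OPC shares were then 66.3% for Olig1, 30.1% for Olig2, 16.5% for Sox10 and 16.8% for Sox8. The MyOligo shares were 37.6%, 7.11%, 12.3% and 6.96% (none of the OPC cells had under 500 UMIs). OPC remained above MyOligo for each of these 4 factors after thinning.

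The genes with the most similar profile to each factor were ranked by Pearson's r of the mean log2(CPM + 1) over the 38 clusters, among 8795 genes that reached 50 CPM in some cluster. This is a description over clusters that share libraries. For Sox10 they included Gjc3, a gap junction protein of myelinating glia (r = 0.95), and Erbb3, a neuregulin receptor (r = 0.92). For Sox8 they were the glial adhesion protein gene Hepacam, the cadherin gene Cdh19 and the engulfment receptor gene Megf10, each at r = 0.91. For Sox9 they were Pipox, a pipecolic acid oxidase (r = 0.84), Kcne1l (r = 0.81) and Cbs, the cystathionine beta-synthase (r = 0.81).

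Olig1 was closest to Olig2 (r = 0.91), Nkx2-2 (r = 0.85) and 1700066M21Rik (r = 0.85). Olig2 was closest to Nkx2-2 (r = 0.92), Olig1 and the dopachrome tautomerase gene Dct (r = 0.85). Nkx2-2 was closest to Olig2, Dct (r = 0.89) and Enpp6, a choline phosphodiesterase of new oligodendrocytes (r = 0.86). Sox10 and Sox8 had r = 0.84 with each other, whereas Sox10 had r = 0.35 with Olig1, 0.37 with Olig2 and 0.16 with Sox9.

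The design asks whether blocking smell or training on odours changed the factors in the glia. UMIs were summed per library over each class (OPC, MyOligo, OEC1 to OEC5 as OEC, Astro1 to Astro3 as Astro) and tested on all genes with edgeR's quasi-likelihood test, 2 libraries against 2, with Benjamini-Hochberg adjustment over all genes tested. None of the 40 tests of a factor in a class reached an adjusted p of 0.05 (edgeR), and 5 had an unadjusted p under 0.05 (2 of 6 in Astro and 2 of 4 in OEC with training, and 1 of 6 in Astro under occlusion). Over all genes tested, an unadjusted p under 0.05 was found under occlusion for 4.66% in OPC, 3.81% in MyOligo, 4.12% in OEC and 4.95% in Astro, and with training for 4.9%, 5.19%, 6.61% and 6.15% in the same order. The factors share libraries and cells, so no test of these counts was made. DESeq2 called none of the factors to which it gave an adjusted p, which in OEC with training were 2 factors only. Few genes of any kind were called: 0.0868% of 4609 genes in OPC, 0.0759% of 6587 in MyOligo, 0.00828% of 12077 in OEC and 0.0191% of 10447 in Astro under occlusion, and 0% in OPC, 0.121% in MyOligo, 0% in OEC and 0.0287% in Astro with training. For the 2 comparisons with 0 calls, 226 genes in OPC and 798 in OEC had an unadjusted p under 0.05, and DESeq2 called 0 and 20. The 20 came from the 1213 genes to which DESeq2 gave an adjusted p. With the same control libraries in both comparisons, the occlusion and training values are not independent of each other. Here fewer transcripts per cell and a changed mix of cells within a class cannot be told apart.

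In OPC the factors' log2 fold changes ran from -0.29 to 0.32 under occlusion and from -0.12 to 0.18 with training, with standard errors of 0.16 to 0.25. Olig2 had the most positive value under occlusion, 0.32 ± 0.17 (SE, edgeR adjusted p = 0.958, 2 against 2 libraries), and both occluded libraries, at 925 and 841 CPM, were above both control libraries, at 637 and 734 CPM. Sox8 had -0.29 ± 0.18 (edgeR adjusted p = 0.958), with both occluded libraries below both controls. The libraries of the groups did not overlap for 3 of 5 factors in each comparison (Olig2, Nkx2-2 and Sox8), next to 34.6% and 34.3% of all genes tested in OPC. In the OPC class the summed markers of 1 of 13 cell type lists did not overlap under occlusion, those of sensory neurons, at 255 to 348 CPM in the control and 179 to 187 CPM in the occluded libraries. With training 7 of 13 did not overlap. Myelin markers were 744 to 1049 CPM in the control and 567 to 572 CPM in the trained libraries, dividing-cell markers 108 to 174 and 17 to 57 CPM, and ensheathing markers 1493 to 2077 and 1114 to 1404 CPM. Red blood cell markers were also lower, while precursor, astrocyte and neuron markers were higher, the last at 504 to 522 and 679 to 708 CPM. Their part in the values of the factors was not tested. In MyOligo the factors ran from -0.26 to 0.12 under occlusion and from -0.17 to 0.21 with training, and 1 of 5 did not overlap in each comparison, next to 32% and 34.9% of all genes. In the MyOligo class 4 of 13 marker lists did not overlap under occlusion: endothelial markers were 42 to 75 CPM in the control and 105 to 128 CPM in the occluded libraries and neuron markers 348 to 489 and 300 to 311 CPM, while sensory neuron and dividing-cell markers were higher. With training 3 of 13 did not overlap, all lower, among them ensheathing markers at 770 to 804 CPM in the control and 389 to 582 CPM in the trained libraries. Their part in the values of the factors was not tested.

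**Figure D5:**
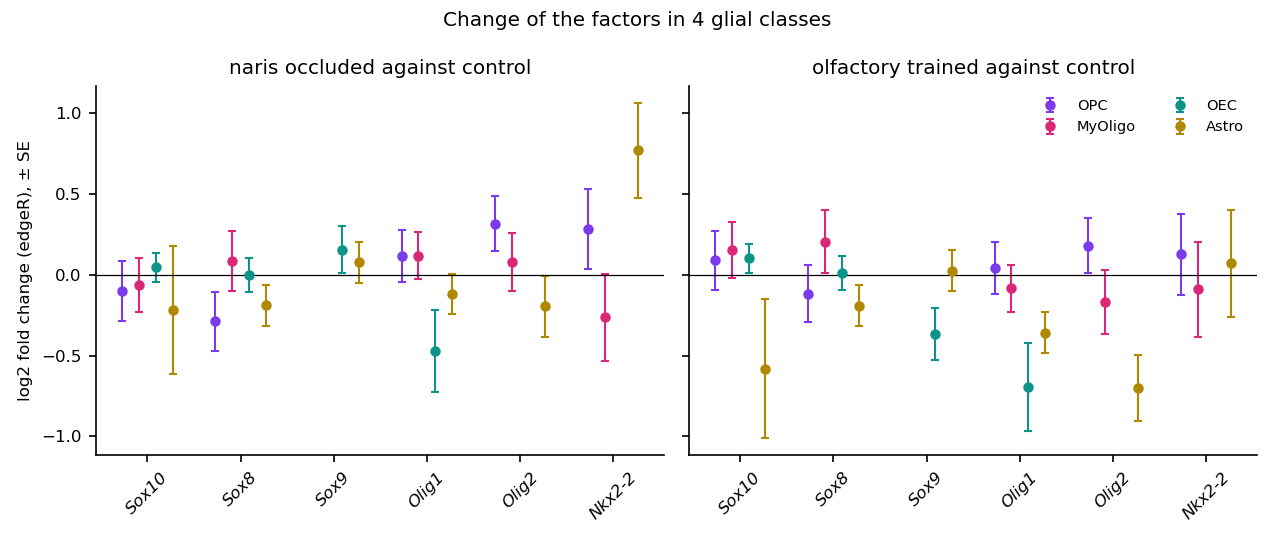
Log2 fold change (vertical axis, ± SE computed from the edgeR test) of each factor in OPC, MyOligo, OEC and Astro (colours), for occlusion against control on the left and training against control on the right, where low counts left some factors without a test. No point has an adjusted p under 0.05, and the points farthest from 0 are Nkx2-2 in Astro under occlusion at 0.77 and Olig1 in OEC and Olig2 in Astro with training, both at -0.70.

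The largest difference by p was Olig2 in the astrocytes of trained mice. In the Astro class its normalised level was 81.6 and 88.0 CPM in the control and 56.1 and 47.1 CPM in the trained libraries, a log2 fold change of -0.70 ± 0.20 (edgeR, unadjusted p = 0.00255, adjusted p = 0.412, lower in 2 of 2 trained libraries). The occluded libraries lay on both sides, at 57.4 and 90.4 CPM. Olig1 in the same class was 186 and 200.3 CPM in the control and 137 and 165 CPM in the trained libraries, -0.36 ± 0.13 (edgeR adjusted p = 0.596). In Astro1 alone the values were -0.75 ± 0.20 for Olig2 and -0.57 ± 0.14 for Olig1 (edgeR adjusted p = 0.247 and 0.108), and in Astro3 alone -0.47 ± 0.60 for Olig2 and 0.23 ± 0.30 for Olig1. Without trained replicate 1, Olig1 in the Astro class was -0.22. Sox9 in the Astro class did not follow, at 0.03 ± 0.13 (edgeR adjusted p = 0.993), with 264 and 236 CPM in the control and 229 and 285 CPM in the trained libraries. Of 13 marker lists, 4 did not overlap in the Astro class with training. Ensheathing markers were 3474 to 3761 CPM in the control and 2650 to 2948 CPM in the trained libraries, myelin markers 171 to 212 and 229 to 268 CPM, astrocyte markers 8680 to 8995 and 9468 to 9757 CPM, and endothelial markers 156 to 158 and 125 to 136 CPM. The precursor markers overlapped, at 53 to 56 and 43 to 58 CPM. The part of these in the Olig values was not tested. The groups did not overlap for 4 of 6 factors with training and 2 of 6 under occlusion, next to 34.2% and 35.1% of all genes.

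Nkx2-2 in the Astro class was 14.2 CPM in each control library, 28 and 20.7 CPM in the occluded and 16.8 and 12.5 CPM in the trained libraries. Occlusion against control gave 0.77 ± 0.29 (edgeR, unadjusted p = 0.0159, adjusted p = 0.926), on 24 and 17 UMIs in the control and 40 and 29 in the occluded libraries. Of 13 marker lists, 5 did not overlap in the Astro class under occlusion. Neuron markers were 560 to 590 CPM in the control and 347 to 495 CPM in the occluded libraries, sensory neuron markers 577 to 617 and 444 to 452 CPM, and astrocyte markers 8680 to 8995 and 9597 to 9617 CPM, while endothelial markers were lower and dividing-cell markers, under 5 CPM throughout, were higher. Their part in the Nkx2-2 value was not tested.

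In OEC, Sox9 was 28.1 and 28.7 CPM in the control and 20.2 and 23.9 CPM in the trained libraries, -0.37 ± 0.16 (edgeR adjusted p = 0.726). In OEC5 alone the value was 0.71 ± 0.46 and without trained replicate 1 it was -0.24. Over the alternatives it ran from -0.60 to 0.71. OEC1, the OEC cluster with the highest Sox9, had 233 to 523 cells per library, with the lowest numbers in the trained libraries. Its own Sox9 level was also lower in both trained libraries than in both controls, as given above. The part of the OEC1 share of the class in the Sox9 value was not tested. Olig1 in OEC, low in every cluster, was -0.70 ± 0.27 with training (edgeR adjusted p = 0.608), on 22 to 59 UMIs in these libraries. That value ran from -1.39 in OEC1 alone to -0.10 in OEC3 alone, and was -0.43 without control replicate 2, -0.41 without trained replicate 2 and -1.05 without trained replicate 1. Sox10 and Sox8 in OEC, with 471 to 1124 UMIs per library, lay between 0.00 and 0.10 in both comparisons with standard errors of 0.09 to 0.11. In the OEC class 4 of 13 marker lists did not overlap with training. Among them were astrocyte markers at 2992 to 2999.9 CPM in the control and 3175 to 3307 CPM in the trained libraries and microglial markers at 68.2 to 71.9 and 89.0 to 90.7 CPM. Under occlusion 5 of 13 did not overlap. Ensheathing markers were 28287 to 28402 CPM in the control and 30167 to 30301 CPM in the occluded libraries, and neuron markers 421 to 468 and 276 to 342 CPM. Astrocyte and mesenchymal markers were also higher and sensory neuron markers lower. The part of all these lists in these values was not tested. The OEC groups did not overlap for 2 of 4 factors under occlusion and 3 of 4 with training, next to 34.9% and 36.4% of all genes.

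Further genes of the glial lineages were read from the same fits. Of 24 further transcription factors and chromatin proteins of the glial lineages (among them Myrf, the myelin regulator, and Sox2, Sox5 and Sox6), 16 to 20 could be tested in a class and 0 were called in either direction in any class or comparison. Their median log2 fold change lay between -0.07 and 0.11. Of 17 genes listed for precursors, myelin and ensheathing glia, such as Mbp and Pdgfra, 10 to 15 were tested and 0 were called. Their medians ran from -0.34 in OPC with training to 0.03. Of 9 astrocyte genes such as Slc1a3, the glutamate transporter, and Aqp4, 7 to 9 were tested and 0 were called, with medians from 0.00 to 0.34. The median over all genes tested was within 0.01 of 0 in every fit. Cdh19, the cadherin with a profile close to Sox8, was called in the Astro class with training at a log2 fold change of 0.87 (edgeR adjusted p = 0.029), and it was the only called gene among those named here for their likeness to a factor.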

How the data were processed

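Single-cell RNA-seq (10x 3′ libraries) was made from 6 pools of 3 mice. Per the labels and the submitters' processing notes, the authors used Cell Ranger 2.0.0, the mm10 build and Seurat 2.2.1, kept cells with at least 200 genes and removed doublets. The deposited table holds raw UMI counts, and an annotation gives each cell's library, its cluster and, as a deposited fraction, its mitochondrial UMIs. A second, processed table was not used. Cluster numbers are those of the deposited annotation and can differ from those printed elsewhere. The library was read from the annotation, since the cell-name prefixes of the 2 trained libraries are crossed against it. Of 52549 barcodes, 1123 had no cluster and entered no comparison. No further filter or doublet caller was applied.

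UMIs were summed per cluster and library and scaled to CPM. Class sums were tested in R 4.3.3 with edgeR 4.0.16 (filterByExpr, TMM, quasi-likelihood test, all 6 libraries in the fit, adjusted p under 0.05); DESeq2 1.42.0 was an alternative. The CPM of the factors given for the Astro and OEC classes use TMM library sizes, and the marker sums of all classes use raw UMI totals. The fits were tested on simulated data. Floors use 3 counts and cover counting error only; log2 ratios of clusters use a pseudocount of 1 CPM. Motifs and figures were made with Python 3.11.15. Sequences and positions are from RefSeq GRCm38.p6, which held an upstream window for 3 of the 6 factors.

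The factors and gene lists were chosen with earlier results of these data known. The rule for named genes was the 6 factors, the 3 genes with the highest r to each among genes reaching 50 CPM, and any called gene of the lists. A gene that this rule names is not reported here. Other genes are named as cell type markers or as examples of a list, with no choice by value, except Cspg4, Agt and Sostdc1 in the label check, chosen after their values were seen. Alternatives were a replicate block, DESeq2, RLE factors, no filter, cells with at least 1000 UMIs, cells with at most 20% mitochondrial UMIs, each library left out, single clusters, and other ways to compute levels.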

Additional observations from a re-analysis of the deposited data

Results flagged for a closer look

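Among 32 levels with a mean of at least 50 CPM, the library farthest from the others stood apart by Dixon's criterion for 6 libraries (the gap to the nearest library over the whole range) in 2, a test that chance alone passes in about 1 of 20 groups. Sox10 in OEC3 was 211 CPM in occluded replicate 2 (ratio 0.635), and Sox8 in MyOligo was 184 CPM in trained replicate 2 (ratio 0.650).

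In 5 cases the libraries of a factor moved in opposite directions in a pair of glial classes without overlap between the groups, and the difference itself was not tested. Under occlusion Nkx2-2 had a log2 fold change of 0.28 in OPC and -0.26 in MyOligo, and -0.26 in MyOligo against 0.77 in Astro. With training Olig2 had 0.18 in OPC against -0.17 in MyOligo and -0.70 in Astro. With training Sox10 had 0.10 in OEC against -0.58 in Astro, where it lies at the background level. None of these changes had an adjusted p under 0.05 in edgeR, and about 32% to 36.4% of all genes show no overlap in a comparison.

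The 1123 barcodes without a cluster entered no comparison, yet they held all 6 factors above the limit of 3 counts. A UMI of Sox10 was found in 18.1% of them (294 UMIs) and of Sox8 in 18.1% (274 UMIs). Sox9 was found in 10.7% (184 UMIs), Olig1 in 7.12% (120 UMIs), Olig2 in 3.47% (49 UMIs) and Nkx2-2 in 1.60% (19 UMIs). In annotated cells the shares were 10.8%, 9.03%, 5.21%, 6.18%, 2.54% and 0.920% in the same order. The pooled levels did not all follow the shares: Sox10 was at 97.4 CPM without and 90.9 CPM with a cluster, Sox8 at 90.7 and 71.1, Sox9 at 60.9 and 40.7, Olig1 at 39.7 and 98.0, Olig2 at 16.2 and 25.1 and Nkx2-2 at 6.29 and 6.67 CPM, so no order is read from the shares of the last 3. The barcodes without a cluster were deeper, with a median of 2327 against 1354 UMIs.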

How the results depend on the processing

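No factor was called in any class or comparison under any alternative run. In OEC with training DESeq2 gave an adjusted p for 2 factors only. Of 536 log2 fold changes of factors under alternatives, 0 had an adjusted p under 0.05 and 38 had the other sign; of 71 for the 5 changes over 2 standard errors, 2 had the other sign (Olig1 in Astro3 alone and Sox9 in OEC5 alone). Olig2 in Astro with training ran from -0.84 to -0.47, with adjusted p from 0.102 to 1.00, and Olig1 in OEC with training from -1.39 to -0.10.

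The counts of all genes called depended on the processing, and the cause was not tested. In the order OPC, MyOligo, OEC, Astro the main counts were 4, 5, 1 and 2 under occlusion and 0, 8, 0 and 3 with training. DESeq2 gave 0, 0, 0 and 0 under occlusion and 0, 1, 20 and 4 with training, the 20 among 1213 genes with an adjusted p. Without a filter on low counts, OPC gave 4 with training, MyOligo 11 and 15, OEC 50 and 147 and Astro 17 and 45 (occlusion, then training). With cells of at least 1000 UMIs, MyOligo gave 0 and 5, and training gave 1 in OPC, 2 in OEC and 22 in Astro; with at most 20% mitochondrial UMIs Astro gave 22 with training. Leaving out 1 library at a time gave 1 to 7 genes in OPC, 5 to 17 in MyOligo, 0 to 1 in OEC and 0 to 10 in Astro under occlusion, and 0 to 3, 3 to 31, 0 to 109 and 1 to 43 with training, where the highest counts in MyOligo, OEC and Astro came without trained replicate 2.

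The labels give every group replicate numbers 1 and 2 and name no shared animals, and by the study's description the numbers mark sex. Deviations of same-numbered libraries correlated at 0.07 to 0.25. With the replicate block, training gave 3 genes in OPC, 14 in OEC and 7 in Astro, no factor was called, and the other counts stayed within 1.5 times.

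As the mean of single-cell CPM, Sox10 in OPC was 365, Sox9 in Astro1 254 and Nkx2-2 in OPC 147 CPM, and in the control libraries alone Sox8 in OPC was 443 CPM; Sox9 was then highest in Astro2 by both means. None of the 5 changes over 2 standard errors was called, and with 2 libraries a group this does not show that the factors did not differ. With log2 of the mean CPM, an alternative chosen after seeing the data, 15 of 18 genes named for their likeness to a factor were the same.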
